A study of Mus musculus with 20 samples.

Results

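The last interval of a withdrawal time course was examined: the peaks of open chromatin listed at 120 h without estradiol (E2) were set against those listed at 96 h without it. The members are all peaks of both lists, 23620 at 120 h and 29806 at 96 h, together 53426 of the 504887 peaks in the 10 lists of the series. A 96 h peak that no 120 h peak overlapped by at least 1 bp is called closed, a 120 h peak that no 96 h peak overlapped by at least 1 bp is called new, and a peak with such a partner is called kept. A promoter peak lay at most 1000 bp from the transcription start site (TSS) that the deposited annotation names, and every other peak is called distal.

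At both times the material was the same cultured mouse line of C57BL/6 origin, ER-Hoxa9-Lys-GFP, which carries a fusion of an estrogen receptor with Hoxa9, a homeobox transcription factor, together with a fluorescent GFP reporter at lysozyme. The 120 h group and the 96 h group were grown in RPMI with fetal bovine serum and medium conditioned with stem cell factor, and in both groups E2 had been washed out and left out for the stated time. The sources used here do not say whether the line is a single clone. ATAC-seq was used, in which the transposase Tn5 inserts sequencing adapters into accessible DNA. Each time has 2 replicates, which may be technical because the nuclei were divided into 2 transposition reactions, and the authors deposited 1 peak list per time that belongs to both. No spread between replicates and no p-value can therefore be given for this step, the read depth is unknown, and the 95% Wilson intervals below cover counting error only. A peak is either in a list or not, so a site that passed the peak threshold at 96 h and narrowly missed it at 120 h counts as closed in full. In cells measured in bulk, fewer cells with an open site and a less open site in each cell cannot be told apart. Coordinates are those of mm10, the build that the file headers name, while the submitters' processing notes name mm9.

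As background, an estrogen receptor fusion of this kind is active while E2 is present and holds cells at an immature myeloid stage, and removal of the ligand lets them mature towards granulocytes. Maturing neutrophils first make primary granules, which hold proteases and myeloperoxidase, then secondary and tertiary granules with lactoferrin and gelatinase, and late in maturation the oxidase that produces superoxide. Promoters rich in CpG dinucleotides tend to be open in most cell types, whereas distal elements and promoters poor in CpG are mostly used by particular cell types. No peak of any list analysed here is assigned to Hoxa9, so the fused factor cannot be read from its own locus.

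The promoters of 6 genes on which the following results turn are shown first, because their peaks stood on different sides of this step: Ctsc (cathepsin C, which activates granule serine proteases), Cst7 (cystatin F, an inhibitor of cathepsins) and Cybb (the oxidase subunit that carries electrons across the membrane) had a promoter peak that closed, Cebpa (a transcription factor of the granulocyte lineage) and Icam1 (an adhesion molecule) had a new promoter peak, and Ltf (lactoferrin of the secondary granules) had one that was kept. Each sequence is the RefSeq window of assembly GRCm38.p6, equal to mm10, with 250 bases before and 50 bases after the TSS, printed 5′ to 3′ on the strand of the gene. The windows are chr7:88277835-88278134 on the plus strand for Ctsc, chr2:150570165-150570464 on the plus strand for Cst7, chrX:9469275-9469574 on the minus strand for Cybb, chr7:35119043-35119342 on the plus strand for Cebpa, chr9:21015690-21015989 on the plus strand for Icam1 and chr9:111019042-111019341 on the plus strand for Ltf. Capitals mark every match, on either strand, to any of 7 short motifs. The letters searched for the ETS family of transcription factors were CCGGAAG, and those for its member PU.1 were GAGGAAG, which share a core but cannot both match the same letters. The GC box, bound by Sp factors in many promoters, was GGGCGG, and the CCAAT box was its own name. For the C/EBP factors of the granulocyte lineage the letters were TTGCNNAA, for the stress-responsive AP-1 dimers they were TGANTCA, and for the TATA box they were TATAAA.
Ctsc: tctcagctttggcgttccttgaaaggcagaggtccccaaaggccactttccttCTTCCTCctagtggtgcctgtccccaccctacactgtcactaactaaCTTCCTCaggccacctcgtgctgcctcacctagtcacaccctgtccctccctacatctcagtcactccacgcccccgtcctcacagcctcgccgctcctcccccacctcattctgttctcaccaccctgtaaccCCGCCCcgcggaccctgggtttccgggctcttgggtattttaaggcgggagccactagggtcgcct
Cst7: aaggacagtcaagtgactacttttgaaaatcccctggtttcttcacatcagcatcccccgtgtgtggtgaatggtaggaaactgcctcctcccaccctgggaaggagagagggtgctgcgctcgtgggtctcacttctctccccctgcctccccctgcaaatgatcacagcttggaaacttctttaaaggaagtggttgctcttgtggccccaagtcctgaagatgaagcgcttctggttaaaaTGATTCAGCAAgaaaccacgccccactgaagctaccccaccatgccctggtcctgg
Cybb: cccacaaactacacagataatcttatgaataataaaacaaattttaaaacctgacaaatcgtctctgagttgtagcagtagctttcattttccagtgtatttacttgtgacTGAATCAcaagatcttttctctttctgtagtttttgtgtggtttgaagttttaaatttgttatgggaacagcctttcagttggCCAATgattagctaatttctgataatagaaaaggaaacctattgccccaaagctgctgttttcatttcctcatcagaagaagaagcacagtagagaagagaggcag
Cebpa: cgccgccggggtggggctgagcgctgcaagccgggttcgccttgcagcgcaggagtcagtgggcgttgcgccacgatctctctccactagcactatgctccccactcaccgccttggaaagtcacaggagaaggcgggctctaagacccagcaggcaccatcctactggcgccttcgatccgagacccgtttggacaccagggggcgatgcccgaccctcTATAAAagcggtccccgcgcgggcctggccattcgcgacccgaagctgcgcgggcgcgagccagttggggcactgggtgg
Icam1: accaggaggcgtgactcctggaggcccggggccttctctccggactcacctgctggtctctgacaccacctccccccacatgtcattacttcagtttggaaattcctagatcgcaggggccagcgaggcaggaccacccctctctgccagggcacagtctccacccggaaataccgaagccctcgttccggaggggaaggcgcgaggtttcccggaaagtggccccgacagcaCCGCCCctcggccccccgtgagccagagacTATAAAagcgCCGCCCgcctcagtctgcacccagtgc
Ltf: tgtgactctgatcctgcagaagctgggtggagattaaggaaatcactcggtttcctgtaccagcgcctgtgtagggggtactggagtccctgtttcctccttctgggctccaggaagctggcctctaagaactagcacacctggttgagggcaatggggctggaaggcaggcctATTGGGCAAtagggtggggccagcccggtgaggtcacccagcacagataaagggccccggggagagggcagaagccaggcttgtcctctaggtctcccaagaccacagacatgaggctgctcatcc

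The Ctsc window held 2 PU.1 matches and 1 GC box, the Cst7 window 1 AP-1 and 1 C/EBP match that overlap, and the Cybb window 1 AP-1 match and 1 CCAAT box. Of the new promoters, Cebpa held 1 TATA box and Icam1 held 1 TATA box and 2 GC boxes. The Ltf window held 1 CCAAT box and 1 C/EBP match that overlap, so the run of capitals there belongs to both. Such a match describes letters in the window and says nothing about which factor was bound.

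Most of what left the list between 96 and 120 h lay away from genes' start sites, and rather little entered it. At 120 h the list held 8968 promoter and 14652 distal peaks, against 9580 promoter and 20226 distal peaks at 96 h. Of the 120 h peaks, 444 promoter peaks were new, 4.95% (4.52 to 5.42%), and 1673 distal peaks were new, 11.4% (10.9 to 11.9%). Of the 96 h peaks, 1048 promoter peaks were closed, 10.9% (10.3 to 11.6%), and 7224 distal peaks were closed, 35.7% (35.1 to 36.4%). Counted in bases, 13.5 Mb were shared, which is 87.3% of the 15.4 Mb covered at 120 h and 75.2% of the 17.9 Mb covered at 96 h. Only the 120 h list covered 1.97 Mb and only the 96 h list covered 4.43 Mb. When the 96 h list was cut to its 23620 widest peaks, as many as the 120 h list holds, the new share of distal peaks was 24.5% and the closed share 23.7%. In that setting a 120 h peak whose only 96 h partner had been cut counts as new, so the word is wider there than defined above. Over all peaks 4207 were then new and 4206 closed, 17.8% of either list, and such counts lie close together by construction when the lists are equally long.

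Closed distal peaks were mostly narrow, 4959 of 7224 being under 400 bp, and in each width bin the closed shares of distal and promoter peaks lay closer together than over all peaks. New peaks had a median width of 765.5 bp at promoters and 367 bp at distal sites, against 863 and 508 bp for kept 120 h peaks. Closed peaks had a median width of 522 bp at promoters and 318 bp at distal sites, against 874 and 520 bp for kept 96 h peaks. Among peaks under 400 bp, the new share was 17.9% of promoter and 19.9% of distal peaks, and the closed share was 54.9% of promoter and 58.5% of distal peaks. From 600 to under 800 bp, 3.43% (2.75 to 4.28%) of promoter and 5.87% (5.10 to 6.74%) of distal peaks were new. In the same bin 6.38% of promoter and 11.9% of distal peaks were closed. The lowest closed shares stood at 800 to under 1000 bp, with 4.74% (4.04 to 5.55%) at promoters and 9.30% (7.75 to 11.1%) at distal sites. At 1400 bp or more the shares were higher again: 8.94% of 246 promoter peaks were new, and 12.2% of 262 promoter peaks were closed. The intervals of promoter and distal peaks do not overlap for closed peaks in any bin from 400 to under 1200 bp, and outside that range they do.

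**Figure D1:**
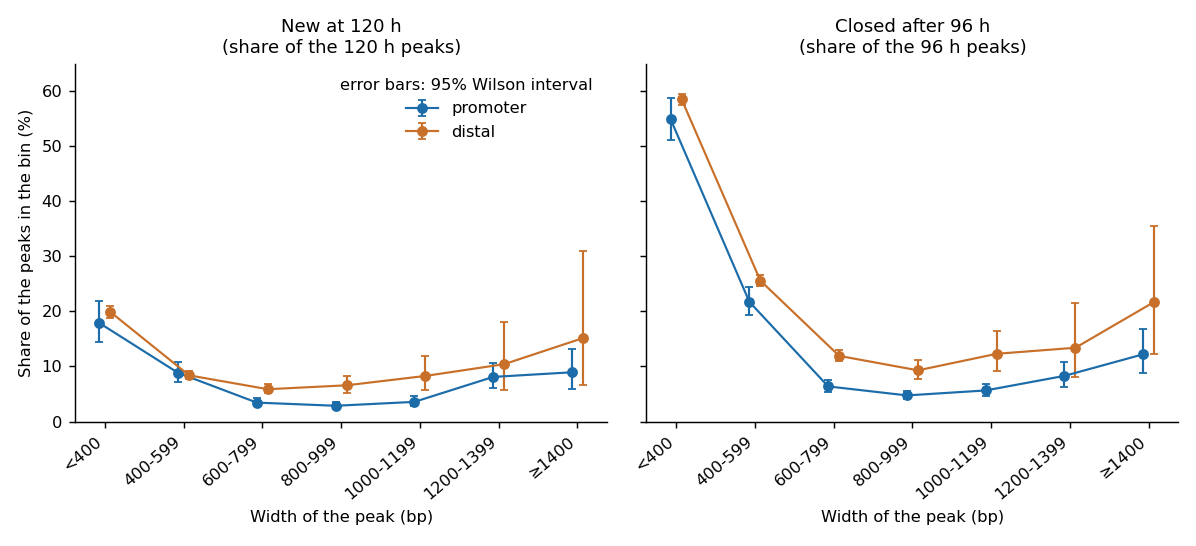
Share of peaks that were new at 120 h (left) and closed after 96 h (right), in percent of the peaks in each bin of peak width in bp, for promoter peaks and distal peaks; points are shares and bars are 95% Wilson intervals. The closed share stands at 54.9% of promoter and 58.5% of distal peaks under 400 bp, and at 4.74% and 9.30% from 800 to under 1000 bp.

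Kept sites were close in width at both times. For the 21304 kept sites where exactly 1 peak of each list met, the median width was 636 bp at 120 h and 647 bp at 96 h. The median difference, 120 h minus 96 h, was -5 bp, with the middle 50% of sites between -56 and 38 bp. Of these sites 44.8% were wider at 120 h and 54.0% were narrower. By kind of site, the median difference was -5.5 bp at 8440 promoter sites and -5 bp at 12864 distal sites.

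Closed peaks were in large part old sites, and new peaks were in large part sites that had been listed before. Of the 2117 new peaks, 255 (12.0%) had no overlapping peak in any of the 8 earlier lists and 665 (31.4%) had a partner in all 8. Of the 8272 closed peaks, 520 (6.29%) had none and 3593 (43.4%) had a partner in all 8. Kept 120 h peaks had none in 1.77% and all 8 in 56.6%. At 72 h, the last list before this step, 71.6% (69.7 to 73.5%) of the new peaks had a partner, so they were listed at 72 h, not listed at 96 h and listed at 120 h. Of the closed peaks 81.3% had a partner at 72 h, and of the kept 120 h peaks 91.0%. Distal peaks without any earlier partner were the class most often new: 242 of 596 such 120 h peaks (40.6%) were new, against 522 of 7423 (7.03%) of those present in all 8 earlier lists. Among 96 h distal peaks the closed share was 58.2% with no earlier partner and 31.3% with all 8. The same order held among distal peaks of 400 to under 600 bp, with new shares of 34.8% and 4.28% and closed shares of 44.2% and 20.9%.

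**Figure D2:**
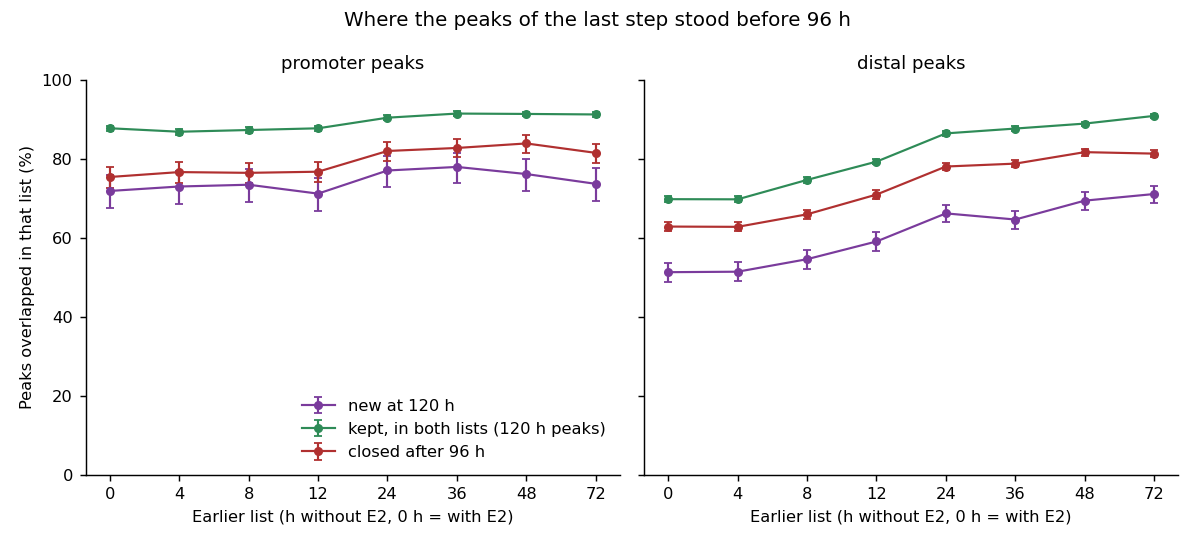
Share of new 120 h peaks, kept 120 h peaks and closed 96 h peaks, in percent, that an earlier list overlapped by at least 1 bp, by the hours of that list without E2, for promoter peaks (left) and distal peaks (right); bars are 95% Wilson intervals. New peaks lie below closed peaks and closed peaks below kept ones in every earlier list, and over all peaks 71.6% of the new ones and 81.3% of the closed ones were listed at 72 h.

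The same calculation for the other 8 consecutive pairs of lists is given for scale, with no test of the differences. The new share of 4.95% at promoters was the lowest of the 9 steps, the others lying between 9.66% and 14.2%, and the new share of 11.4% at distal sites was also the lowest, the others lying between 12.4% and 23.5%. The closed share of 10.9% at promoters lay within the range of the others, 10.1% to 15.3%. At distal sites 35.7% were closed, below the 51.3% of the step from 72 to 96 h, next to the 33.5% of the step from 48 to 72 h, and above the 16.5% to 20.4% of the earlier steps. Lists differ in length, from 62559 peaks at 24 h to 23620 at 120 h, and read numbers are not in the files, so how far depth sets these shares was not tested.

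Beyond the promoter the distance to a gene made little difference to what closed. In the 4 classes of distance beyond 1000 bp the new share lay between 9.75% and 13.2%, highest in the farthest class, and the closed share lay between 34.3% and 36.1%. Intergenic and intronic peaks were closed at 34.8% and 35.1%, exonic peaks at 22.8%, and peaks annotated to a 5′ UTR at 9.54%. Among 96 h peaks that the annotation places in a repeat, 42.4% (38.9 to 46.0%) of 750 in SINEs, 37.3% of 871 in LINEs and 36.1% of 2134 in LTR elements were closed, against 26.7% of peaks outside repeats, where promoter peaks are also counted. SINE, LINE and LTR peaks had median widths of 410 to 413 bp, against 575 bp for peaks outside repeats. Within LTR elements the closed share was 38.5% (35.7 to 41.4%) for the ERVL-MaLR family and 25.6% for ERV1, with 203 peaks; the median widths were 397 and 401 bp. Of 71 peaks in ribosomal RNA repeats, 5 were closed, at a median width of 284 bp over the 71. Across the autosomes and X, the closed share lay between 24.9% on chromosome 17 and 30.8% on chromosome 16.

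Some closed promoter peaks had a kept peak close by. A kept peak of the same list lay within 2000 bp of 15.8% (12.7 to 19.4%) of the new promoter peaks and 10.8% (10.1 to 11.4%) of the kept 120 h promoter peaks. It lay within 2000 bp of 20.9% (18.5 to 23.5%) of the closed promoter peaks and 10.9% (10.3 to 11.6%) of the kept 96 h promoter peaks. At distal sites the order was the reverse, with 12.5% of new against 15.6% of kept 120 h peaks, and 12.3% of closed against 15.97% of kept 96 h peaks.

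CpG content differed between the promoters that closed and those that stayed. Of 32817 RefSeq promoter windows, 9301 met a peak in both lists, 459 met one at 120 h and not at 96 h, 929 met one at 96 h and not at 120 h, and 22128 met none. The observed over expected CpG ratio had a median of 0.725 in windows with a new peak, 0.643 in windows with a closed peak, 0.811 in kept windows and 0.249 in windows with no peak. By class of that ratio, the new share was 10.2% below 0.4, 6.90% from 0.4 to 0.6, 4.03% from 0.6 to 0.8 and 3.61% at 0.8 or more. The closed share was 25.4% (22.9 to 28.0%) of 1114 windows, 12.0% of 1104, 7.33% of 2852 and 5.89% (5.28 to 6.57%) of 5160 in the same classes. The 96 h peaks over these windows also differed in width, with medians of 634, 794.5, 879.5 and 951 bp. Among windows whose 96 h peak was 800 to under 1000 bp wide, the closed shares were 16.1% (11.4 to 22.3%), 4.91%, 4.02% and 3.10% (2.42 to 3.98%), and among those of 400 to under 600 bp they were 25.9%, 25.5%, 21.8% and 17.8%.

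**Figure D3:**
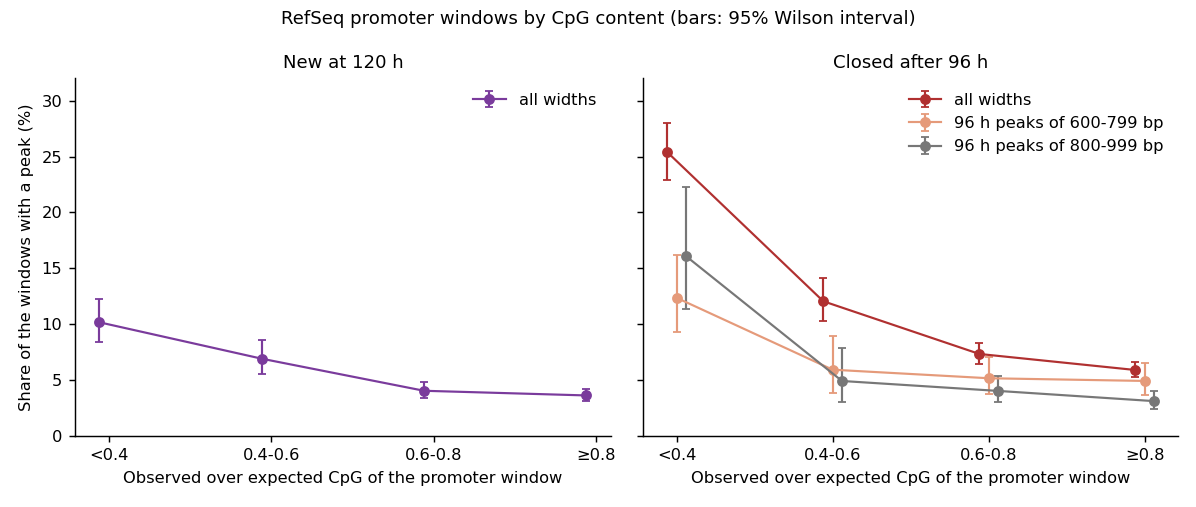
Share of RefSeq promoter windows with a peak that were new at 120 h (left) or closed after 96 h (right), in percent, by the observed over expected CpG ratio of the window; the right panel also gives windows whose 96 h peak was 600 to under 800 or 800 to under 1000 bp wide, and bars are 95% Wilson intervals. Closed shares were 25.4% below a ratio of 0.4 and 5.89% at 0.8 or more over all widths.

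The motif content of the windows is given by class. The ETS motif stood in 9.59% of windows with a new peak, 10.5% of those with a closed peak, 22.8% of kept windows and 8.86% of all windows. The GC box stood in 62.7% of new, 54.8% of closed, 67.9% of kept and 35.6% of all windows. PU.1, the master factor of the myeloid lineage, had its motif in 15.9% of new, 17.8% (15.4 to 20.4%) of closed, 13.8% (13.1 to 14.5%) of kept and 13.6% of all windows. AP-1 was found in 6.75% of new, 6.89% of closed, 4.35% of kept and 7.81% of all windows, and the TATA box in 6.10%, 8.40%, 5.66% and 13.6% in the same order. The CCAAT box stood in 37.0%, 32.7%, 40.1% and 37.4%, and C/EBP in 6.97%, 8.72%, 8.44% and 10.8%. Windows differ in base composition, with median GC contents of 61.3% for new, 59% for closed and 62% for kept windows, and the part of base composition in these shares was not tested.

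By gene, more genes had a kept promoter peak than a kept distal peak, and fewer had a closed promoter than a full loss of distal listings. Of 14243 genes with a peak in either list, 8102 had a promoter peak in both lists, 494 had one at 120 h and none at 96 h, and 945 had one at 96 h and none at 120 h. For distal peaks the counts were 6966 genes with peaks in both, 357 at 120 h alone and 2039 at 96 h alone. Of the 494 genes with a new promoter, 240 had no peak of any kind assigned to them at 96 h and 254 had a distal one. In 356 of the 494, no 96 h peak of any gene overlapped their 120 h promoter peaks. In the remainder such a 96 h peak was assigned to a neighbouring TSS or lay beyond 1000 bp. Of the 945 genes with a closed promoter, 542 had no peak at 120 h and 403 still had a distal peak. In 802 of the 945, no 120 h peak of any gene overlapped their 96 h promoter peaks, and in the remainder the overlapping 120 h peak was assigned to a neighbouring TSS or lay beyond 1000 bp. Fewer peaks at 120 h than at 96 h were counted at 37.2% of the genes and more at 8.07%, with a median difference of 0 peaks. Of 942 genes with at least 5 distal peaks at 96 h, 2 had all of them closed. Over all distal peaks 35.7% were closed, a share at which few genes with so many peaks would lose every one.

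Gene lists are described next by role, with counts of peaks and no test, beside the background over all peaks of 8.96% new and 27.8% closed. By kind, 4.95% of all promoter and 11.4% of all distal peaks were new, and 10.9% and 35.7% were closed. Lists differ in their mix of promoter and distal peaks. Peaks belong to the nearest TSS as deposited. All 9 of the 12 primary granule genes that had a peak at either time had fewer at 120 h, with 24 peaks at 120 h and 40 at 96 h. Of their 24 peaks at 120 h, 2 were new, and of their 40 at 96 h, 17 were closed, 42.5% (28.5 to 57.8%), among them 5 of 10 promoter peaks and 12 of 30 distal ones. Median widths of the 96 h peaks were 534.5 bp for the promoter and 342 bp for the distal peaks of this list, below the 858 and 445 bp of all 96 h peaks. Between lists of equal length, 5 of 24 peaks were closed, 20.8% (9.24 to 40.5%), where 17.8% of all peaks were closed. The 18 secondary and tertiary granule genes had 40 peaks at 120 h and 46 at 96 h: 1 gene counted more peaks at 120 h, 4 fewer and 13 as many. None of their 12 promoter peaks at 96 h was closed, which by the Wilson interval allows up to 24.2% and so holds the 10.9% of all promoter peaks, and 2 of 14 at 120 h were new, while 10 of 34 distal peaks were closed.

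Ctsc carried 7 peaks at 120 h and 11 at 96 h. Its promoter peak of 739 bp at chr7:88277703-88278441, which covers the TSS and the window printed above, and the 264 bp peak at chr7:88277289-88277552 beside it were both closed after having a partner in all 8 earlier lists. Of its distal peaks, 6 of the 7 listed at 120 h overlapped a 96 h peak, among them an upstream intergenic peak at chr7:88251372-88252435, 1064 bp wide at 120 h, that met 2 peaks of 810 and 256 bp at 96 h. Cst7 had 0 peaks at 120 h and 3 at 96 h, between 259 and 588 bp wide, each with a partner in all 8 earlier lists, and its promoter peak was chr2:150569949-150570536. Srgn, the proteoglycan core that packs granule proteins, had 6 peaks at 120 h against 9 at 96 h and kept its promoter peak, 534 bp at 120 h and 558 bp at 96 h. Mpo, myeloperoxidase itself, had 2 peaks at 120 h against 3 at 96 h, and the 284 bp intronic peak that closed lies in an ERVL-MaLR element. Bpi, a bactericidal protein, kept its promoter peak at 703 bp at 120 h and 749 bp at 96 h and lost the listing of a 234 bp intronic peak at 758 bp from the TSS. Serpinb1a, an inhibitor of those proteases, kept a promoter peak of 366 bp at 120 h and 363 bp at 96 h, and a 226 bp peak upstream of it was closed. Ctsg (cathepsin G) had 0 peaks at 120 h against 1 at 96 h, while Elane (neutrophil elastase), Prtn3 (proteinase 3) and Prss57 had 0 at both times.

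Among the secondary granule genes, Ltf counted 4 peaks at 120 h and 3 at 96 h. Its promoter peak was 659 bp wide at 120 h and 727 bp at 96 h, in a region with an earlier peak at 8 h and at no other time, and a 413 bp peak at chr9:111017115-111017527, upstream of the TSS, was new and had no partner in any earlier list. Camp (cathelicidin) kept a promoter peak of 780 bp at 120 h and 759 bp at 96 h, and so did Lcn2 (lipocalin 2) with 918 bp at 120 h and 834 bp at 96 h. The promoter peaks of Ngp were 488 bp wide at 120 h and 446 bp at 96 h, and those of Mmp8 (neutrophil collagenase) 709 bp at 120 h and 646 bp at 96 h. Mmp9, the gelatinase of the tertiary granules, had a new 282 bp promoter peak at chr2:164948000-164948281 with no earlier partner, and a 1054 bp intronic peak at chr2:164952579-164953632 was closed. Mcemp1 kept a 261 bp promoter peak and had a new one of 949 bp beside it that had a partner in 7 earlier lists. Among the members with fewer peaks, Slpi, an inhibitor of elastase, had 1 at 120 h against 3 at 96 h and Padi4, the enzyme that citrullinates histones in neutrophils, had 3 at 120 h against 5 at 96 h. Anxa1 (annexin A1) had 6 peaks at 120 h against 8 at 96 h, with 3 distal peaks closed and 1 new.

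**Figure D4:**
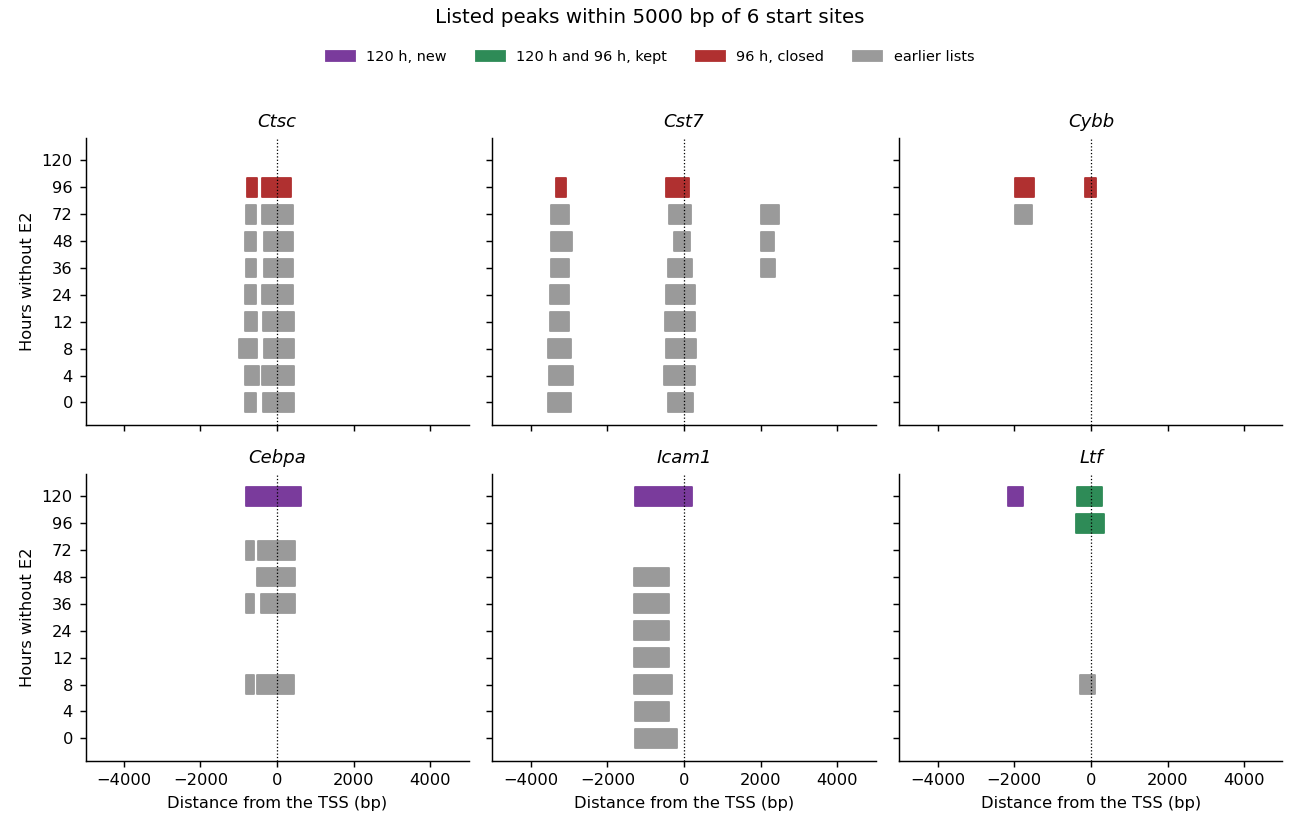
Peaks listed within 5000 bp of the TSS of 6 genes, by distance from the TSS in bp (x axis, upstream to the left) and hours without E2 (y axis); each bar is 1 listed peak, coloured by its class at 120 and 96 h and grey in earlier lists. The Ctsc and Cst7 promoter peaks are present from 0 to 96 h and absent at 120 h, the Cybb promoter peak is present at 96 h alone, and the Cebpa promoter peak is present at 120 h and absent at 96 h.

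The 8 genes of the phagocyte oxidase, whose complex makes superoxide, had 25 peaks at 120 h and 34 at 96 h. Of the 25 peaks 4 were new, and of the 34 peaks 13 were closed, 38.2% (23.9 to 55.0%), including 3 of 7 promoter peaks. Cybb counted 3 peaks at 120 h and 4 at 96 h. Its promoter peak of 275 bp at chrX:9469195-9469469 was listed at 96 h and in no other list, a 512 bp upstream peak in an ERVL element was closed, 2 intronic peaks were kept and a 401 bp intronic peak was new with no earlier partner. Ncf1, the cytosolic organizer of the oxidase, had 3 peaks at 120 h against 5 at 96 h, with its 271 bp promoter peak and an upstream peak of 1359 bp at chr5:134232074-134233432 closed and a 673 bp intronic peak new. Hvcn1, a proton channel, had 2 peaks at 120 h against 5 at 96 h, with a 733 bp peak over its TSS closed and a 607 bp peak in the intron behind it kept. Ncf4 had 5 peaks at 120 h against 6 at 96 h, and Rac1, the GTPase of the complex, had 3 at 120 h against 2 at 96 h, while Rac2 and Cyba had as many at both times. For the genes of neutrophil surface receptors and chemotaxis, 9 of 121 peaks at 120 h were new. Of their 144 peaks at 96 h 31 were closed, 21.5% (15.6 to 28.9%), an interval that holds the pooled background of 27.8%. By kind, 26 of 112 distal peaks were closed, 23.2% (16.4 to 31.8%), an interval below the 35.7% of all distal peaks. The promoter interval, 6.86 to 31.8%, holds the 10.9% of all promoter peaks.

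No promoter peak of those 35 genes was new and 5 of 32 were closed. The 5 belonged to Itgb2 (the shared chain of the leukocyte integrins), Csf2rb (the common beta chain of cytokine receptors), Fcgr2b (an inhibitory Fc receptor), Clec4e and Clec7a (lectin receptors for microbes). At Itgb2 the 595 bp peak over the TSS was closed, while the next peak in the first intron was kept at 504 bp at 120 h and 588 bp at 96 h, and a 700 bp intronic peak was new. Csf2rb had 1 peak at 120 h and 2 at 96 h, and its 801 bp promoter peak had a partner in all 8 earlier lists. Cxcr4, the receptor that retains neutrophils in the marrow, had 12 peaks at 120 h against 17 at 96 h, with its promoter peak kept at 850 bp at 120 h and 705 bp at 96 h and 5 distal peaks closed. Cxcr2, the receptor that draws them out, had 3 peaks at both times and Itgam had 7. Csf3r, the receptor of the granulocyte growth factor, had 3 peaks at 120 h against 4 at 96 h and kept its promoter peak at 917 bp at 120 h and 837 bp at 96 h. Ly6g had 2 peaks at 120 h against 5 at 96 h, with 3 distal peaks closed.

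**Figure D5:**
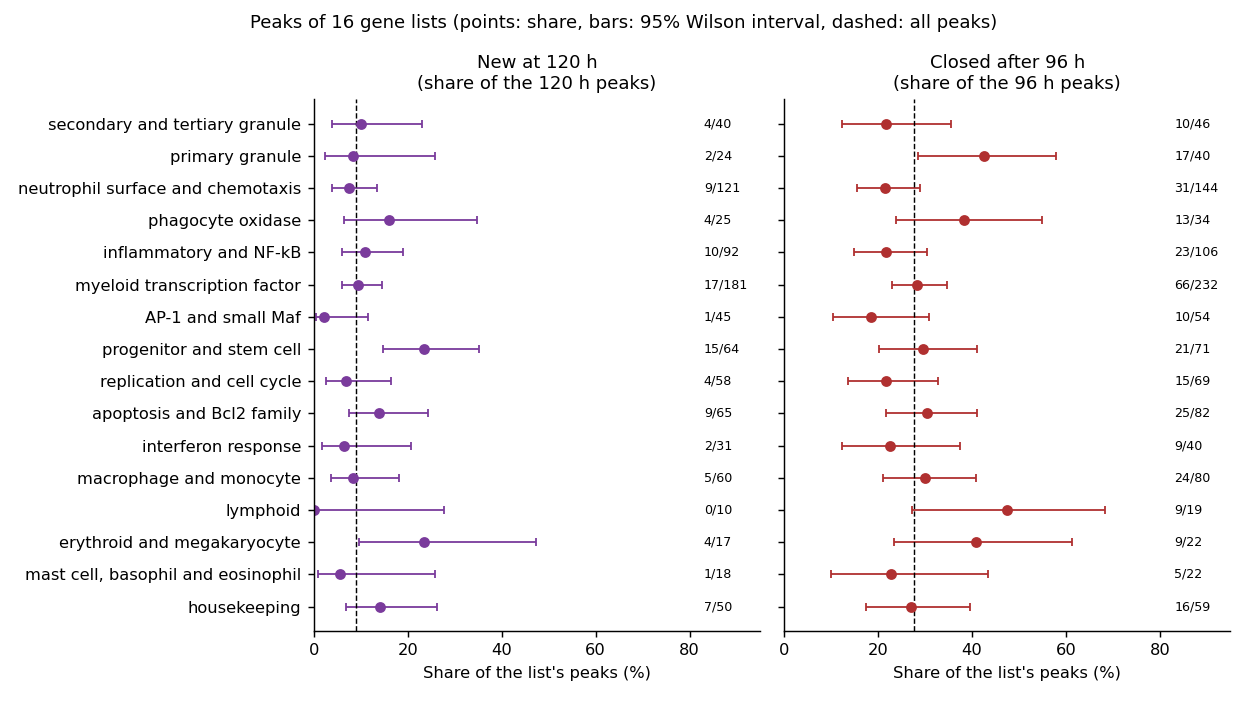
New peaks in percent of the 120 h peaks (left) and closed peaks in percent of the 96 h peaks (right) of 16 gene lists; points are shares, bars are 95% Wilson intervals, fractions give the counts, and dashed lines mark all peaks at 8.96% and 27.8%. The closed interval of the primary granule list, 28.5 to 57.8%, does not reach the dashed line. Nor do the new intervals of the progenitor list, 14.7 to 35.1%, and the erythroid and megakaryocyte list, 9.56 to 47.3%. Within 50000 bp of the TSS both new intervals reach the 8.35% of all such peaks. The lines pool promoter and distal peaks, and lists differ in that mix. The distal closed interval of the primary granule list, 24.6 to 57.7%, holds the 35.7% of all distal peaks. Its promoter closed interval, 23.7 to 76.3% with 5 of 10 closed, lies above the 10.9% of all promoter peaks. So do those of the phagocyte oxidase list, 15.8 to 75%, the progenitor list, 16.3 to 56.3%, and the macrophage and monocyte list, 19.3 to 68%. Distal closed intervals of the neutrophil surface list, 16.4 to 31.8%, and the inflammatory list, 15.8 to 34.1%, lie below the 35.7% of all distal peaks. All 4 new erythroid and megakaryocyte peaks were among 13 distal ones, where 11.4% of all distal peaks were new.

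Among 49 myeloid transcription factors the new and closed shares were near the background. The list had 181 peaks at 120 h and 232 at 96 h, of which 17 were new, 9.39% (5.95 to 14.5%), and 66 were closed, 28.4% (23.0 to 34.6%). Of 39 promoter peaks at 120 h, 2 were new, at Irf5 and Cebpa, and of 46 at 96 h, 9 were closed, at Irf8, Irf1, Gfi1, Runx3, Stat5b, Stat6, Elf1, Zeb2 and Cbfb. That is 19.6% (10.7 to 33.2%), an interval that holds the 10.9% of all promoter peaks, and Stat5b, Stat6 and Cbfb each kept another promoter peak. Irf8, which favours monocytes over granulocytes, had 1 peak at 120 h and 5 at 96 h. Its 830 bp promoter peak at chr8:120735972-120736801 and 3 downstream peaks of 241 to 268 bp were closed. The promoter peak had a partner at 0, 4, 8, 24, 36 and 48 h and none at 12 or 72 h. Irf1 had 2 peaks at 120 h against 4 at 96 h with a 1037 bp promoter peak closed, and Gfi1, a repressor needed for granulocytes, had 2 at 120 h against 3 at 96 h with a 480 bp peak in its 5′ UTR closed. Runx3 had 6 peaks at 120 h against 10 at 96 h, all 4 closed ones having a partner in at least 6 earlier lists. Elf4, an ETS factor, had 5 peaks at 120 h against 10 at 96 h, and Klf4, a monocyte factor, had 10 at 120 h against 14 at 96 h, both with the promoter peak kept and with 5 and 4 distal peaks closed.

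Cebpa had 4 peaks at 120 h and 3 at 96 h. Its new promoter peak of 1429 bp at chr7:35118489-35119917 covers the printed window and had partners at 8, 36, 48 and 72 h. Spi1, the gene of PU.1, had 3 peaks at 120 h and 1 at 96 h. Its promoter peak was kept, at 563 bp at 120 h and 847 bp at 96 h, and the new peaks, 284 bp at chr2:91084551-91084834 upstream and 234 bp in an intron, had a partner in all 8 earlier lists. Cebpe, the factor of secondary granule genes, kept its promoter peak at 1216 bp at 120 h and 1326 bp at 96 h, and Cebpd kept its own at 1203 bp at 120 h and 1177 bp at 96 h. Cebpb had 1 peak at 120 h and 0 at 96 h, but its 1973 bp peak overlapped a 253 bp 96 h peak that the annotation assigns to A530013C23Rik, so it counts as kept. Runx1 had 13 peaks at 120 h against 15 at 96 h, with 3 promoter peaks kept, 4 distal peaks closed and 3 new, of which a 1416 bp intronic peak in an ERV1 element had been listed at 72 h.

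The 12 AP-1 and small Maf genes, which answer growth and stress signals, kept every promoter peak of theirs, 11 at both times. Of their 45 peaks at 120 h 1 was new, and of their 54 at 96 h 10 were closed, 18.5% (10.4 to 30.8%). Fos had 5 peaks at 120 h against 9 at 96 h with 4 distal peaks closed, and Jun had 11 at 120 h against 13 at 96 h with 3 closed and 1 new. The median width of the list's promoter peaks at 96 h was 1075 bp, against 858 bp over all promoter peaks, and from 1000 to under 1200 bp 5.64% of all promoter peaks were closed. The 0 of 11 promoter peaks closed here allow up to 25.9% by the Wilson interval.

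Inflammatory and NF-kB genes had 92 peaks at 120 h, 10 of them new, and 106 at 96 h, 23 of them closed, 21.7% (14.9 to 30.5%). Of their 80 distal peaks at 96 h 19 were closed, 23.8% (15.8 to 34.1%), an interval below the 35.7% of all distal peaks. Of their 26 promoter peaks 4 were closed, and that interval, 6.15 to 33.5%, holds the 10.9% of all promoter peaks. New promoter peaks stood at Icam1, Irak3 (a brake on Toll-like receptor signals) and Ccl3 (a chemokine), and closed ones at Osm (oncostatin M), Ccl6, Nfkbiz and Bcl3. Icam1 had 1 peak at 120 h and 0 at 96 h, chr9:21014664-21016155 with 1492 bp. Earlier Icam1 peaks stood at 0 to 48 h and ended upstream of the TSS, whereas the 120 h peak reaches across the TSS. The Irak3 peak of 867 bp had partners in 5 earlier lists, while the new 225 bp Ccl3 peak had none and stands beside a promoter peak kept at 816 bp at 120 h and 846 bp at 96 h. At Osm and Nfkbiz another promoter peak of the gene was kept. Nfkb1 had 3 peaks at 120 h against 6 at 96 h with its promoter peak kept.

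Progenitor and stem cell genes had new as well as closed peaks. The 20 of 25 genes with a peak had 64 peaks at 120 h and 71 at 96 h. Of the 64 peaks, 15 were new, 23.4% (14.7 to 35.1%), and of the 71 peaks, 21 were closed, 29.6% (20.2 to 41.0%). By kind, 6 of 18 promoter peaks were closed, 33.3% (16.3 to 56.3%), an interval above the 10.9% of all promoter peaks. Of 53 distal peaks 15 were closed, 28.3% (18 to 41.6%), an interval that holds the 35.7% of all distal peaks. At 120 h, 1 of 12 promoter and 14 of 52 distal peaks were new, where 4.95% and 11.4% of all such peaks were new. Between lists of equal length the new share of these genes was 29.7% (19.9 to 41.8%), where 17.8% of all peaks were new. With peaks within 50000 bp of the TSS alone, 6 of 37 were new, 16.2% (7.65 to 31.1%), an interval that holds the 8.35% of all such peaks. Meis1, a homeobox partner of Hoxa9, had 4 peaks at 120 h against 3 at 96 h, with its promoter peak kept at 528 bp at 120 h and 410 bp at 96 h and a 494 bp intronic peak new. Flt3, a growth factor receptor of early progenitors, had 4 at 120 h against 3 at 96 h, with an 860 bp intronic peak new, and both new peaks had been listed at 72 h. Kit, the receptor of stem cell factor, had 2 at 120 h against 5 at 96 h, and its 1357 bp promoter-proximal peak at chr5:75574632-75575988 was closed after a partner in all 8 earlier lists. Cdk6, a kinase of the cell cycle, had 3 peaks at 120 h against 6 at 96 h with a 1090 bp promoter peak closed, and Gata2 had 2 at 120 h against 3 at 96 h with a 654 bp promoter peak closed and a 344 bp one kept. Cd34 had 3 at both times, with a 656 bp promoter peak new and a 553 bp intronic peak closed. Erg and Trib2 had 4 at both times, each with 2 peaks closed and 2 new.

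For 33 genes of replication and the cell cycle, 4 of 58 peaks at 120 h were new and 15 of 69 at 96 h were closed, 21.7% (13.6 to 32.8%). No promoter peak was new and 5 of 31 were closed, at E2f2, Ccnb1, Ccnd2 and, with 2 peaks, Mcm5, a helicase subunit whose peaks of 810 and 188 bp had partners in all 8 earlier lists. Mki67 had 3 peaks at 120 h against 5 at 96 h with its promoter kept. In the apoptosis and Bcl2 family list, 9 of 65 peaks at 120 h were new and 25 of 82 at 96 h were closed, 30.5% (21.6 to 41.1%). Of 22 promoter peaks at 96 h 3 were closed, 13.6% (4.75 to 33.3%), and of 60 distal peaks 22, 36.7% (25.6 to 49.3%). These intervals hold the 10.9% and 35.7% of all promoter and distal peaks. Of 25 promoter peaks at 120 h 6 were new, where 4.95% of all promoter peaks were new. The new ones included the survival genes Bcl2 (1065 bp), Bcl2l1 (1365 bp) and Xiap (1213 bp), each with a partner in all 8 earlier lists, and small peaks of 244 and 239 bp beside kept promoter peaks of Bcl2a1a and Bcl2a1b, near-identical copies whose reads may be split between them. Casp8 had a closed promoter peak of 583 bp at a TSS and a new one of 866 bp at another TSS. Bak1, an effector of cell death, had 1 peak at 120 h against 4 at 96 h with its 425 bp promoter peak closed. Among the BH3-only genes, which start that process, Bmf had 5 peaks at 120 h against 9 at 96 h, Pmaip1 4 at 120 h against 8 at 96 h, and Bcl2l11 9 at 120 h against 12 at 96 h, these 3 with their promoter peaks kept. Bbc3 had 4 peaks and Bad 2 at both times, and at Bbc3 1 of 2 promoter peaks was closed.

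Lists for other blood lineages are given by their counts of new and closed peaks. For macrophage and monocyte genes, 5 of 60 peaks at 120 h were new and 24 of 80 at 96 h were closed, 30.0% (21.1 to 40.8%), including 5 of 12 promoter peaks, whose median width was 453 bp. The growth factor receptor gene Csf1r had 3 peaks at 120 h against 5 at 96 h with its promoter kept at 697 bp at 120 h and 681 bp at 96 h. Cx3cr1 had 5 at 120 h against 6 at 96 h, and all 6 were kept. Adgre1 had 4 at both times, with 1 distal peak closed and 1 new. Mrc1 had 1 at both times, but its 96 h promoter peak was closed and its 120 h distal peak was new. For lymphoid genes, 0 of 10 peaks at 120 h were new and 9 of 19 at 96 h were closed, 47.4% (27.3 to 68.3%). Of the 11 genes with a peak, 6 counted fewer at 120 h and 5 as many. Cd3e and Pax5 were at 0 and Rag1 and Rag2 at 2 peaks at both times, Tcf7 had 0 at 120 h against 1 at 96 h, Dntt 0 at 120 h against 2 at 96 h, and Ebf1 2 at 120 h against 5 at 96 h. For erythroid and megakaryocyte genes, 4 of 17 peaks were new and 9 of 22 were closed, with 2 of 11, 18.2% (5.14 to 47.7%), new within 50000 bp of the TSS. Of these genes, Gata1 was at 0 at 120 h and 1 at 96 h, Klf1 at 1 at both times, and Epor at 1 at 120 h and 0 at 96 h. For mast cells, basophils and eosinophils the counts were 1 of 18 new and 5 of 22 closed, with Mcpt8 at 0 and Cpa3 at 1 at both times. For interferon response genes, 2 of 31 peaks were new and 9 of 40 closed, among them the promoter peaks of Ifit2 and Gbp2. The 14 genes of non-blood tissues had 0 peaks at both times. What part other cell types have in the results above was not tested.

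By share of peaks, housekeeping genes, which every cell uses, lay near the background. Of their 50 peaks at 120 h, 7 were new, 14.0% (6.95 to 26.2%), and of their 59 at 96 h, 16 were closed, 27.1% (17.4 to 39.6%). Of 24 promoter peaks at 120 h 2 were new, and of 25 at 96 h 3 were closed. The new ones were at Vcp (1083 bp) and Hprt (711 bp), both with a partner in all 8 earlier lists, and the closed ones at Ywhaz (1369 bp), Gapdh and Ppia. At Gapdh and Ppia the closed peaks, of 233 and 180 bp, stood beside main promoter peaks that were kept, at 1666 bp at 120 h and 1650 bp at 96 h for Gapdh and at 1177 bp at 120 h and 1170 bp at 96 h for Ppia. By number of genes, 7 of the 26 with a peak had more peaks at 120 h, 9 fewer and 10 as many. Over all genes 8.07% had more and 37.2% fewer. The 9 of 26 with fewer lay near that background, whereas the 7 of 26 with more stood above it. No interval was computed for these counts of genes.

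The genes with most closed peaks were Gm17746 with 11 of its 27 at 96 h, Mir6388 with 9 of 31 and G530011O06Rik with 9 of 19. Next came Bcor, Snx10 and Gpr141 with 7 of 10 each, Ldhal6b with 7 of 9 and 2410131K14Rik with 7 of 11. Ly6e had 7 of 14 closed and 4933433H22Rik 7 of 15. Such counts depend on how many peaks a gene has, and 27.8% of all 96 h peaks were closed. The peaks of G530011O06Rik lie on both X and Y. Genes with most new peaks were Lrrk2, Sgms1, Trps1, 4921509O07Rik and Mbnl1 with 4 each and Hnrnpf, Sh3bp5, Aff1, Runx1 and 5430437J10Rik with 3 each. Those with most kept peaks were Mir101c with 29, Mir6388 with 22, Trps1 with 17, Gm17746 and Rn4.5s with 16 each, Maf with 15, and Zfp608, Tbl1xr1, Irf2bp2 and A630001O12Rik with 14 each. Bcor, a corepressor of Bcl6, had 16 peaks at 72 h, 10 at 96 h and 3 at 120 h. Its closed peaks comprised a 1169 bp peak in the 5′ UTR and 6 distal peaks of 262 to 840 bp. Gpr141, an orphan receptor, had 3 peaks at 120 h against 10 at 96 h, all 7 closed ones distal. Lrrk2, a kinase with much expression in neutrophils, counted 10 peaks at 120 h and 6 at 96 h, and its promoter peak was kept at 714 bp at 120 h and 712 bp at 96 h. Of its 4 new distal peaks, 3 had been listed at 72 h and a 299 bp peak at chr15:91651577-91651875 had not been listed before. At Hnrnpf, an RNA-binding protein, 3 promoter peaks of 438, 1140 and 1591 bp were new and 0 were listed at 96 h. Mir101c had 30 peaks at 120 h and kept all 29 of its 96 h peaks, all of which lie in satellite repeats of chromosome 9, where reads from many copies may be counted together. At Lyz2, the lysozyme gene, 2 peaks were listed at 120 h and 1 at 96 h, and the new one, 509 bp at chr10:117277741-117278249 in the 3′ UTR, had partners at 48 and 72 h.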

How the data were processed

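ATAC-seq peak lists of 10 times were used, 1 list per time shared by 2 replicates. The authors deposited peaks annotated with HOMER against mm10, per the file headers; the submitters' processing notes name BWA, MACS2 2.0, STAR 2.5 and mm9 with no role or order. Filters, the Tn5 shift, pooling of replicates and depth are not stated in what was used here. The deposited peak score is 0 for every peak, per the file headers and values, so peaks could not be ranked by it, and peak width was used where an order was needed.

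Peaks of the 120 h and 96 h lists were overlapped at a minimum of 1 bp. The step was run on simulated data of 20000 sites set far apart, where 100% were classed correctly. That outcome follows from how the sites were made, so it checks the code alone. It cannot show how often real peaks near the peak threshold are classed wrongly. Promoter peaks lay within 1000 bp of the deposited TSS. Shares carry 95% Wilson intervals, which cover counting error only; no test across samples could be made. Genes are those nearest to each peak as deposited. Where 2 genes share a start region, the assignment can move between lists.

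Of the 32851 promoter windows from RefSeq (GRCm38.p6), 32817 were used, with 250 bases before and 50 after the TSS; the sequence of distal peaks was not analysed here. The members and the 17 gene lists were chosen with earlier results of these data known. The 105 genes given in detail were Lyz2, the 10 genes each with most closed, new and kept peaks, those of the 8 widest closed and 8 widest new promoter peaks, and up to 4 members a list with most closed and new peaks. Other genes named as members of a small count, or as markers of a list, and the 6 printed windows were chosen after their values were seen. Alternatives changed the overlap, the promoter definition, the list length, the narrow peaks, the chromosomes and the gene window. Overlaps and intervals were computed in Python (version 3.11.15) with pandas 2.3.3, numpy 2.4.6 and, for the intervals, scipy 1.17.1; plots were drawn with matplotlib 3.10.9. Values of some single genes are not reported here.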

Additional observations from a re-analysis of the deposited data

How the results depend on the processing

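Of 49 alternative values for the shares and the counts of genes, 33 stayed within the intervals or within 1.5 times, and 16 moved. All 16 that moved were shares, and the cause was not tested except where noted. Every count of genes stayed, but under the looser limit of 1.5 times. With a peak within 500 bp counted as shared, the new shares were 4.47% at promoters and 10.9% at distal sites, and the closed shares 9.69% and 34.3%. With the deposited promoter annotation in place of distance, they were 4.48% and 10.8% new and 10% and 33.7% closed. With a promoter distance of 2000 bp, 13.2% of promoter peaks were closed. With peaks of 400 bp or more alone, 15.4% of distal peaks were new, and 9.01% of promoter and 28.1% of distal peaks were closed. Between lists of equal length, which leaves out the 6186 narrowest 96 h peaks by construction, 6.88% of promoter and 24.5% of distal peaks were new, and 8.53% and 23.7% were closed.

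Counts of genes with a kept promoter lay between 6077 and 8413, with a new one between 477 and 719 and with a closed one between 805 and 1071; the overlap settings do not enter them. For the gene lists, all 32 shares stayed within their intervals with peaks within 50000 bp of the TSS, and 14 of 32 moved between lists of equal length. No paired analysis was possible because each time has 1 list whose columns carry no replicate, and for the same reason no replicate could be left out. Read depth is unknown, so its part in the shorter 120 h list was not tested.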

Other observations

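Wide promoter peaks also left and entered the lists. Of promoter peaks of at least 1200 bp, 68 were new and 746 kept at 120 h, and 82 were closed and 783 kept at 96 h. Of these, 24 of the 68 new and 36 of the 82 closed had a partner in all 8 earlier lists, and 0 of either had none. The widest new promoter peaks stood at Foxn2 (1927 bp), Zbtb1 (1844 bp), Igf1r (1824 bp), Ccnj (1816 bp), Kcmf1 (1770 bp), Hnrnpa1 (1686 bp), Chka (1676 bp) and Ifngr2 (1672 bp). The widest closed ones stood at Rbpms (2169 bp), Spag9 (1892 bp), Zbtb11os1 (1765 bp), Srpk2 (1713 bp), Extl2 (1707 bp), Pan3 (1704 bp), Tmem131l (1618 bp) and Nol4l (1617 bp). Igf1r is the receptor of an insulin-like growth factor and Ifngr2 a chain of the interferon gamma receptor.

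Of 31 peaks listed on chromosome Y at 96 h, 15 were closed, 48.4%, at a median width of 305 bp. A closed and a new promoter peak stood together at 18 genes, Casp8 among them, and 910 genes had both a closed and a new peak of any kind.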
